A study of Mus musculus with 6 samples.

Results

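The IL-1 family and inflammasome genes described here are 9 genes named by symbol: the cytokines Il1a, Il1b, Il18 and Il33, the receptor antagonist Il1rn, the sensor Nlrp3, the adaptor Pycard and the proteases Casp1 and Casp4. All 9 were found among the 19321 genes named on the array, each with 1 probe, and all 9 were among the 18372 genes tested, which had to lie above background on at least 2 of 6 arrays. Il1rn met that requirement through the 2 arrays of CD31+ or CD45+ cells alone.

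Cells came from hind limb muscle of C57BL/6 mice, and the labels name no treatment and no engineered allele in any group. Young mice were 8 to 10 weeks old and aged mice 24 to 28 months old. From each age, PDGFRa+ mesenchymal progenitors (interstitial cells that can form fibroblasts and adipocytes), satellite cells (the resident stem cells of the muscle fibre) and a mixed gate of CD31+ or CD45+ cells (CD31_CD45 below, holding endothelial and blood-derived cells together) were sorted by flow cytometry and profiled without culture, 1 array for each population and age. Cells of repeated sorts were combined before RNA was extracted, so each array is a pool, and no population was measured in more than 1 pool at either age. The purpose stated for the series was to find genes that mark a population or change with age. The 2 arrays of a population therefore stand in for replicates only after the age difference shared by the 3 populations is removed. The p-values rest on how far the populations depart from that shared age difference. They do not measure a spread between mice or between repeated pools.

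Interleukin-1 cytokines are alarm signals of tissue injury. IL-1 alpha and IL-33 can be released ready-made from damaged cells, whereas IL-1 beta and IL-18 are made as precursors that caspase-1 cuts after an inflammasome has assembled from a sensor such as NLRP3 and the adaptor ASC, the product of Pycard. Caspase-11, the product of mouse Casp4, is activated by bacterial lipopolysaccharide inside the cell and cuts gasdermin D, whose fragment forms the membrane pore of pyroptosis. In muscle, macrophages and other blood-derived cells are known as a source of IL-1 beta, and stromal cells as a source of IL-33, which supports regulatory T cells during repair.

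The promoter stretches of the 4 genes with called differences between populations are shown because these genes carry the main contrast of the data. Each run is the 250 bases before an annotated transcript start, read 5′ to 3′ on the strand of the gene from the RefSeq table of build GRCm38.p6, in lower case, with capitals marking a match to the TATA box letters TATAAA. Il1b lies on the minus strand and its window is chr2:129371140-129371389. Il33 has 2 annotated starts on the plus strand, with windows chr19:29924863-29925112 and chr19:29945540-29945789. Casp1 has its window at chr9:5298267-5298516 on the plus strand, and Pycard at chr7:127993868-127994117 on the minus strand.
Il1b: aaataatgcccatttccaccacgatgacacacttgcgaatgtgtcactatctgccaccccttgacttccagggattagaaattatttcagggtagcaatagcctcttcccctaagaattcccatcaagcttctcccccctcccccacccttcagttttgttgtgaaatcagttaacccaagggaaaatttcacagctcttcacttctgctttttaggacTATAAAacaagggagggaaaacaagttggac
Il33, upstream start: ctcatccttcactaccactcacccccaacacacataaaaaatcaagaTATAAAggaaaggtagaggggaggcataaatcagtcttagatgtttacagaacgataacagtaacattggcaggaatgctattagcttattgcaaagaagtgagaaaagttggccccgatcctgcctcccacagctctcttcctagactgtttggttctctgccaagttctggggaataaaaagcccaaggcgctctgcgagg
Il33, downstream start: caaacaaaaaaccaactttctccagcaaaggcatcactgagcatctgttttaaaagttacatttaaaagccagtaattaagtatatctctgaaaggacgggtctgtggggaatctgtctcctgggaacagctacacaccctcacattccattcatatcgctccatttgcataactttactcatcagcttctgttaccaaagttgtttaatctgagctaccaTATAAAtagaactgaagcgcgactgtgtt
Casp1: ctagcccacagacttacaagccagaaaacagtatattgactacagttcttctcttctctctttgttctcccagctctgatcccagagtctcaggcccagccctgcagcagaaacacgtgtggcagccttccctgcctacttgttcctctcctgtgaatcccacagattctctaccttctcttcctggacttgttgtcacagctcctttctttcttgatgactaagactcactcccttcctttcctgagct
Pycard: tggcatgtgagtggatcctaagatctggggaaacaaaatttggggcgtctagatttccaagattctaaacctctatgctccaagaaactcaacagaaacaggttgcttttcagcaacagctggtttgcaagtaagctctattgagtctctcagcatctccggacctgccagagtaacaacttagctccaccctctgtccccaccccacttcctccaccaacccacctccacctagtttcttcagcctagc

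In Il1b the letters TATAAA began 31 bases before the start, and in the downstream Il33 window 29 bases before it. The upstream Il33 window held them 203 bases before its start, and the Casp1 and Pycard windows did not hold them on either strand. Il1a, on the same chromosome as Il1b, had TATAAA at 32 bases before its start and an AP-1 match, TGANTCA, at 12 bases. TGANTCA was also in 1 of the 3 Il1rn windows, 141 bases before the start. Il18 held TATAAA on the opposite strand, 175 bases before its start. Of 32851 windows of this length in the table, 12.4% held TATAAA and 6.75% held TGANTCA on either strand. The string GGANNTTCC, 1 spelling of the NF-kB site, was found in 3.59% of all windows and, among the 9 genes, in 1 of the 2 Nlrp3 windows. Other spellings of the NF-kB site were not searched, so a window without this string may still hold such a site. The STAT string TTCNNNGAA (7.02% of windows) was in none of the 14 windows of the 9 genes, and the interferon response string TTTCNNTTT (9.37%) was in windows of Casp4, Il1rn and Nlrp3. Both strands were searched, and no 2 matches in a window of the 9 genes overlapped. In the RefSeq gene order, Casp1 and Casp4 were direct neighbours on chromosome 9, with Casp12 next to Casp4, and Il1a and Il1b were direct neighbours on chromosome 2.

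Signal was read as the deposited intensity, a linear value that the authors scaled so that each array has a median of 25, and 20757 to 21671 of 23473 probes per array were above background (88.4% to 92.3%). Tests used log2 values computed from the scanner readings with an offset of 50, which shrinks the differences of dim probes. A gene was called when its limma adjusted p (Benjamini-Hochberg over the 18372 genes) was under 0.05 and the difference was at least 2-fold. The sort labels held against their defining genes: Pdgfra read 5700.4 and 4149.0 on the PDGFRa+ arrays and at most 60.6 elsewhere, Pax7 read 1055.0 and 1361.6 on the satellite arrays and at most 10.6 elsewhere, and summed signal of 10 endothelial markers and of 8 pan-hematopoietic markers was high in CD31_CD45 alone (21208.9 to 27431.5 and 3212.0 to 4222.6, against at most 558.2 and 46.1). Header values of the scanner fell into 2 sets, with young PDGFRa+, young satellite and aged PDGFRa+ in the first set and the other 3 arrays in the second.

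**Figure D1:**
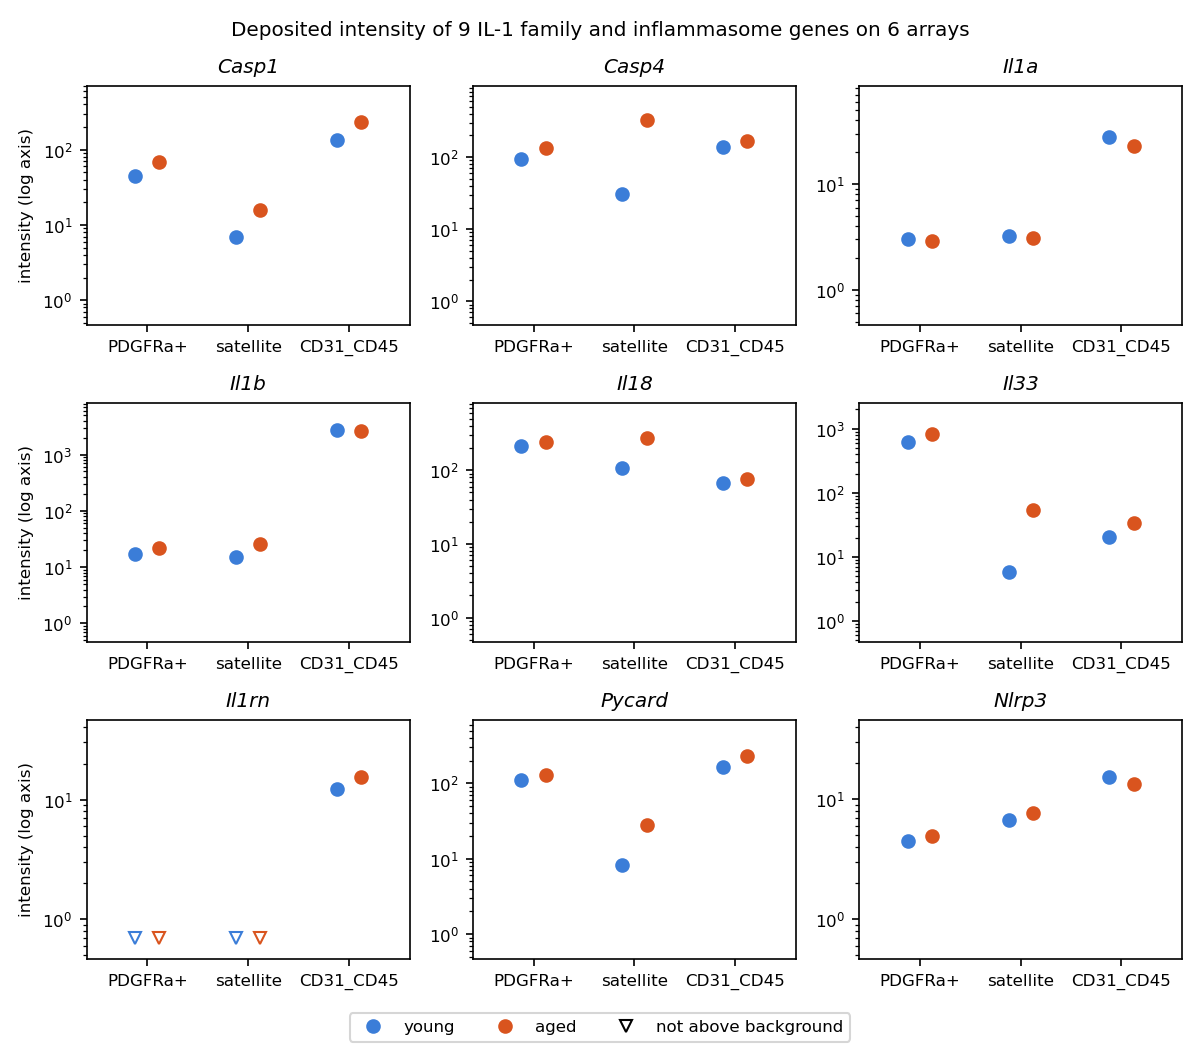
Deposited intensity (log axis, arbitrary units with an array median of 25) of the 9 genes on the 6 arrays, by population, with blue points for young and orange points for aged mice and open triangles for probes not above background. Il33 was highest on both PDGFRa+ arrays, Il1b on both CD31_CD45 arrays, and Casp4 on the aged satellite array (324.1).

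Between populations, 4 of the 9 genes differed by the call rule in at least 1 comparison: Il33 was high in PDGFRa+ cells, Il1b in CD31_CD45 cells, and Casp1 and Pycard were lowest in satellite cells. Il1b and Il33 were therefore split between the blood and endothelial gate on one side and the mesenchymal gate on the other, at both ages. Bulk signal of this kind cannot tell fewer cells of a type from less RNA per cell.

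Il33 encodes a nuclear cytokine that is released on damage and signals through the ST2 receptor. Its intensity was 622.9 and 841.0 on the young and aged PDGFRa+ arrays, 5.7 and 52.9 on the satellite arrays, and 20.1 and 33.5 on the CD31_CD45 arrays. The PDGFRa+ arrays did not overlap with any other, and their mean was 25 times that of the satellite arrays and 27.3 times that of the CD31_CD45 arrays. On the log2 scale the difference was 3.60 against satellite cells (SE 0.24, adjusted p = 0.00824 by limma) and 3.58 against CD31_CD45 (SE 0.24, adjusted p = 0.00474), while satellite and CD31_CD45 arrays overlapped in range (log2 difference -0.02, SE 0.24, adjusted p = 0.964). Both calls rested on the spread of few arrays: with local background subtraction the differences were 2.83 (adjusted p = 0.0816) and 2.91 (adjusted p = 0.0567), and without the young PDGFRa+ array 3.49 (adjusted p = 0.0768) and 3.47 (adjusted p = 0.0541). Without the aged PDGFRa+ array the difference from satellite cells was 3.70 (adjusted p = 0.0606).

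Il1b encodes the secreted cytokine that caspase-1 matures. It read 2741.4 and 2613.8 on the young and aged CD31_CD45 arrays, 16.8 and 21.6 on the PDGFRa+ arrays, and 15.4 and 26.2 on the satellite arrays. The CD31_CD45 mean was 129 times the satellite mean, with no overlap, and the 4 other arrays lay close together. The log2 difference was -5.81 for PDGFRa+ minus CD31_CD45 (SE 0.06, adjusted p = 0.000861 by limma) and -5.80 for satellite minus CD31_CD45 (SE 0.06, adjusted p = 0.000719), and both calls were kept under every alternative tried. PDGFRa+ and satellite cells were not separated (log2 difference -0.02, SE 0.06, adjusted p = 0.912). Beside this, 12 macrophage and monocyte markers summed to 24338.0 and 27906.7 in CD31_CD45 and to between 249.8 and 2131.3 on the other arrays, where the lysozyme gene Lyz2 made up most of the 2 aged values (1904.6 in PDGFRa+, 965.3 in satellite). On each PDGFRa+ array 11 of the 12 macrophage and monocyte markers were above background, all but Adgre1. On the young and aged satellite arrays 10 and 12 were, and on both CD31_CD45 arrays all 12. Of all probes, 88.4% to 92.3% per array were above background. Neutrophil markers, 11 in all, summed to 2602.3 and 4403.6 in CD31_CD45 and to at most 259.0 elsewhere. Which of the gated cells carried Il1b was not tested.

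Il1a encodes IL-1 alpha, which is active without caspase-1. On the CD31_CD45 arrays it read 28.1 (young) and 22.8 (aged), and on the other 4 arrays between 2.9 and 3.2. The high arrays were thus those of its neighbour Il1b, at a dim signal. Its log2 difference was -0.66 against CD31_CD45 both for PDGFRa+ (SE 0.06, adjusted p = 0.00820 by limma) and for satellite cells (SE 0.06, adjusted p = 0.00708), past the p threshold and short of 2-fold. The offset decided this: with an offset of 10 the differences were -1.56 and -1.57 and both were called.

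Il1rn encodes the natural antagonist that occupies the IL-1 receptor without signalling. Its probe was not above background on any PDGFRa+ or satellite array and read 12.2 on the young and 15.4 on the aged CD31_CD45 array. CD31_CD45 was at least 1.36-fold above PDGFRa+ cells and at least 1.36-fold above satellite cells, taking each dim array at the lowest signal counted as above background. Because the gene entered the tests through its high arrays alone, these values are a description, and no p is given for it.

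Il18 encodes the other cytokine that caspase-1 cuts, and its pattern was not that of Il1b. It read 211.2 and 239.5 on the young and aged PDGFRa+ arrays, 108.6 and 271.4 on the satellite arrays and 67.6 and 75.4 on the CD31_CD45 arrays. Both CD31_CD45 values were below all others, and the satellite pair enclosed the PDGFRa+ pair. The difference from CD31_CD45 was 1.28 for PDGFRa+ (SE 0.30, adjusted p = 0.0591 by limma) and 1.03 for satellite cells (SE 0.30, adjusted p = 0.0817) on the log2 scale, so neither was called, and PDGFRa+ minus satellite was 0.24 (SE 0.30, adjusted p = 0.675). The first was called in 9 of 19 other settings (1.14 to 2.24, adjusted p = 0.0117 to 0.0491), among them without either satellite array, with an offset of 10 and with scanner set as a block. The second was called in 5 (1.03 to 1.52, adjusted p = 0.0180 to 0.0496), among them without the young satellite array. These settings are not all separate fits. For the first difference, leaving out either satellite array and fitting only the 2 populations compared gave the same result (1.28). For the second, scanner set as a block and leaving out the young satellite array gave the same result (1.52). The 2 satellite arrays lay 1.16 apart on the log2 scale for this gene.

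Pycard encodes ASC, the adaptor that joins sensor to caspase-1. It read 110.2 and 127.3 on the young and aged PDGFRa+ arrays, 8.3 and 27.8 on the satellite arrays and 164.9 and 230.5 on the CD31_CD45 arrays. The 3 populations did not overlap, with satellite cells lowest and CD31_CD45 highest. PDGFRa+ exceeded satellite cells by 1.56 on the log2 scale (SE 0.08, adjusted p = 0.00636 by limma), and satellite minus CD31_CD45 was -2.15 (SE 0.08, adjusted p = 0.00169). PDGFRa+ minus CD31_CD45 was -0.59 (SE 0.08, adjusted p = 0.0176), short of 2-fold. The call of PDGFRa+ over satellite cells was lost with local background subtraction (0.80, adjusted p = 0.302 by limma). It was also lost without the young (1.45) or the aged (1.66) PDGFRa+ array. The call for satellite minus CD31_CD45 was lost with local background subtraction too (-1.43, adjusted p = 0.116 by limma).

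Casp1 encodes the protease of the canonical inflammasome. It read 45.2 and 68.6 on the young and aged PDGFRa+ arrays, 6.9 and 15.8 on the satellite arrays and 136.7 and 234.5 on the CD31_CD45 arrays. The order was that of Pycard, again without overlap. The log2 difference was 1.01 for PDGFRa+ minus satellite (SE 0.11, adjusted p = 0.0164 by limma), -1.22 for PDGFRa+ minus CD31_CD45 (SE 0.11, adjusted p = 0.00842) and -2.23 for satellite minus CD31_CD45 (SE 0.11, adjusted p = 0.00265). The first lies at the edge of the 2-fold limit and was 0.94 with median scaling and 0.86 with scanner set as a block. The second was not called with that block (-1.52, adjusted p = 0.0622) or without the young or the aged PDGFRa+ array (-1.22, adjusted p = 0.0745 and 0.0724).

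Nlrp3 encodes the sensor that answers to potassium loss and other cell stress. It was dim everywhere, at 4.5 and 4.9 in young and aged PDGFRa+ cells, 6.7 and 7.7 in satellite cells and 15.2 and 13.5 in CD31_CD45 cells. CD31_CD45 was highest without overlap, and the log2 differences were small: -0.31 for PDGFRa+ (SE 0.05, adjusted p = 0.0235 by limma) and -0.23 for satellite cells (SE 0.05, adjusted p = 0.0373) against CD31_CD45, neither reaching 2-fold. PDGFRa+ minus satellite was -0.08 (SE 0.05, adjusted p = 0.349).

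Casp4 had the widest spread within a population of the 9 genes. It read 95.4 and 133.6 on the young and aged PDGFRa+ arrays, 30.9 and 324.1 on the satellite arrays, and 138.5 and 165.6 on the CD31_CD45 arrays. The lowest and the highest of all 6 values were both satellite cells. No population difference was called (log2 -0.10, -0.33 and -0.23 for PDGFRa+ minus satellite, PDGFRa+ minus CD31_CD45 and satellite minus CD31_CD45, SE 0.67, adjusted p = 0.955, 0.788 and 0.846 by limma). Without the aged satellite array, satellite cells were lower than CD31_CD45 (-1.30, adjusted p = 0.0247), and without the young one they were higher than PDGFRa+ cells (PDGFRa+ minus satellite -1.17, adjusted p = 0.0469).

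**Figure D2:**
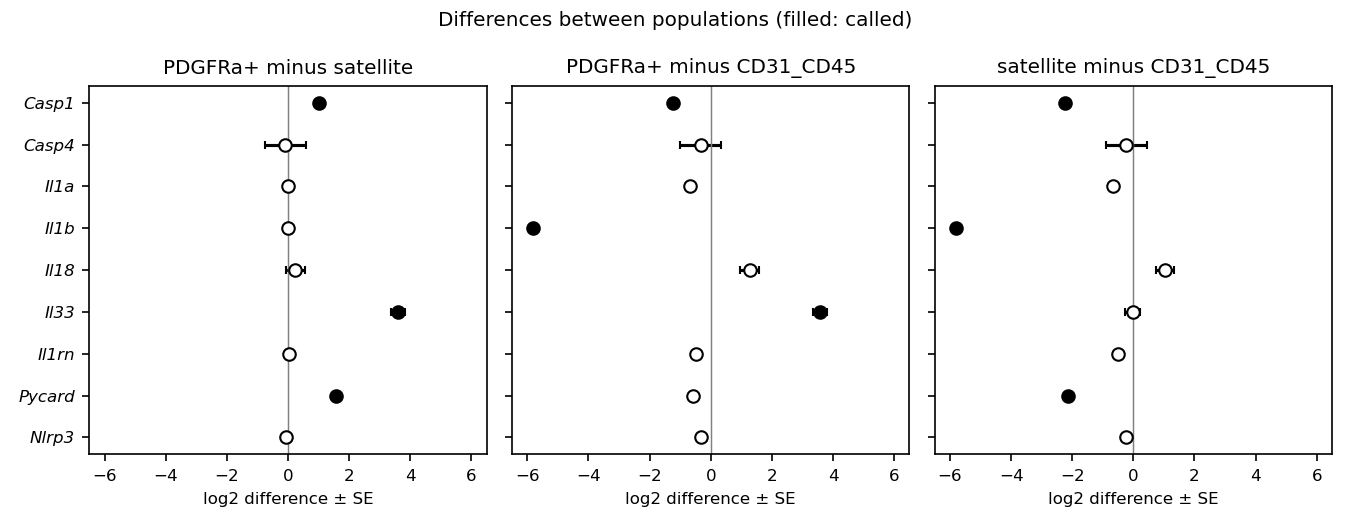
Log2 difference (x axis) of each of the 9 genes between populations, with bars of 1 SE after moderation by limma; filled points passed an adjusted p under 0.05 and 2-fold. Il1b lies at -5.81 and -5.80 in both comparisons with CD31_CD45, Il33 at 3.60 and 3.58 in both comparisons with PDGFRa+ cells, and the bars of Casp4 (SE 0.67) are the widest.

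Counted together, 3 of the 9 genes were higher in PDGFRa+ than in satellite cells (Il33, Pycard, Casp1), where 4.09% of all genes tested were, and none was higher in satellite cells, where 3.2% of all genes were. Against CD31_CD45, 1 gene was higher in PDGFRa+ cells (Il33; 4.7% of all genes) and 2 were lower (Il1b, Casp1; 5.4% of all genes higher in CD31_CD45). In satellite cells none was higher than in CD31_CD45 (5.12% of all genes) and 3 were lower (Il1b, Casp1, Pycard; 6.56% of all genes higher in CD31_CD45). Against CD31_CD45, Il1a, Pycard and Nlrp3 passed the p threshold short of 2-fold in PDGFRa+ cells, and Il1a and Nlrp3 in satellite cells. Each was lower than in CD31_CD45. Il1rn is left out here because it entered through its CD31_CD45 arrays. The median log2 difference of the 9 genes was 0.02 for PDGFRa+ minus satellite, -0.48 for PDGFRa+ minus CD31_CD45 and -0.51 for satellite minus CD31_CD45, beside -0.01, 0.01 and 0.02 over all genes. All 3 medians of the 9 genes are the values of Il1rn, the gene that entered through its CD31_CD45 arrays. They are therefore a description and no measure of the 9 genes as a set. With local background subtraction only Il1b was called, in both comparisons with CD31_CD45. Without the young or the aged PDGFRa+ array, none of all 18372 genes was called between PDGFRa+ and satellite cells, although 5033 and 5426 genes had an unadjusted p under 0.05 by limma. All PDGFRa+ arrays lie in one scanner set and all CD31_CD45 arrays in the other, so in that comparison population and scanner set cannot be told apart without the satellite arrays.

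With age, no gene was called across the 3 populations, either among the 9 or among all 18372 (0.0%). The 3 aged arrays were set against the 3 young ones, and 2030 genes, 4 of them among the 9, had an unadjusted p under 0.05 by limma. These 4 were Pycard (log2 0.42), Casp1 (0.48), Il1b (0.19) and Il33 (0.65), all positive. Over the 9 genes the adjusted p ran from 0.328 to 0.999, with 7 of 9 values positive and a median of 0.42, against -0.01 for all genes. The share of positive values among all genes was not counted. Casp4 had the highest value, 1.07 (SE 0.54, adjusted p = 0.574), with the highest SE of the 9.

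Within a population, 1 aged array stands against 1 young array and there is no test. In satellite cells 3 of the 9 genes were at least 2-fold higher in the aged array, against 1.13% of the 18024 genes above background there, and none was at least 2-fold lower (0.0999% of all). They were Casp4, Il18 and Il33. In PDGFRa+ cells none of the 9 was 2-fold higher (0.263% of all) or lower (0.162%), nor was any in CD31_CD45 (0.514% higher and 0.0663% lower). With local background subtraction these counts differed, with Casp4 (1.35) higher in PDGFRa+ cells, Casp1 (1.15) and Il1b (1.01) in CD31_CD45, and Casp4 alone in satellite cells. The median log2 value of aged over young was 0.28 in PDGFRa+ cells, 0.29 in satellite cells and 0.11 in CD31_CD45, where all genes had medians from -0.01 to -0.00. The sign was positive for 8, 8 and 7 of the 9 genes in this normalisation. In PDGFRa+ and satellite cells these counts and medians include Il1rn, whose probe was not above background there. The medians of all genes leave such genes out. The share of positive signs over all genes was not counted, so these counts are a description.

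Casp4 was 10.5 times higher in intensity in the aged than in the young satellite array (30.9 and 324.1), a log2 difference of 2.50, at or above that of 99.98% of the genes in this pair. The PDGFRa+ pair differed by 0.48 and the CD31_CD45 pair by 0.23. Over the other normalisations the satellite value lay between 2.28 and 3.39. Casp12, the neighbouring caspase gene, differed by 0.85 in the satellite pair, -0.12 in the PDGFRa+ pair and 0.69 in the CD31_CD45 pair, and Casp1, on its other side, by 0.28, 0.47 and 0.68.

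Il18 went from 108.6 to 271.4 in satellite cells (2.50 times, log2 1.16), whereas its log2 differences were 0.28 in PDGFRa+ cells and 0.11 in CD31_CD45. With local background subtraction the satellite difference was 0.51. Il33 went from 5.7 to 52.9 in satellite cells (9.28 times in intensity, log2 1.14 with the offset), from 622.9 to 841.0 in PDGFRa+ cells (log2 0.51) and from 20.1 to 33.5 in CD31_CD45 (log2 0.29). The satellite value for Il33 moved with the scale, from 0.75 with local background subtraction to 3.21 in the deposited table.

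In the same pair, 5 of 9 mesenchymal markers were at least 2-fold higher in the aged satellite array, and the summed intensity of all 9 went from 6540.9 to 10247.1, with Pdgfra from 7.6 to 60.6, Dcn from 453.6 to 2544.0 and Lum from 43.8 to 224.6. For each probe the aged minus young satellite difference was set against the aged PDGFRa+ array. It was 5.61% of that array for Il33, 1.28% for Pdgfra, 2.64% for Lum, 6.08% for Col1a1, 10.9% for Dcn and 11.5% for Col1a2, where the last 5 are the markers at least 2-fold higher. For the other 4 markers it was 4.05% (Dpt), 0.59% (Pi16), 0.24% (Clec3b) and -8.08% (Cd34, which was lower in the aged satellite array). The same share was 68.0% for Il18 and 219% for Casp4, and the aged satellite value of Casp4 exceeded the aged PDGFRa+ value 2.43 times and that of Il18 1.13 times. Among 12 macrophage and monocyte markers, Lyz2 went from 147.3 to 965.3 in the satellite pair, and the other 11 summed to 102.5 and 163.6. Young and aged satellite arrays belong to different scanner sets as well, so in this pair age and scanner set cannot be told apart, and the part of the marker genes in these differences was not tested.

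In the PDGFRa+ pair, whose arrays share a scanner set, Il33 (0.51), Casp4 (0.48) and Casp1 (0.47) had the highest log2 values of the 9, each at or above 98.01% or more of the genes in that pair. This order did not hold with local background subtraction, where Casp4 was 1.35, Casp1 0.32 and Il33 -0.02. Pycard followed at 0.28 and Il1b at 0.19. Of the macrophage and monocyte markers, Lyz2 read 110.1 in the young and 1904.6 in the aged PDGFRa+ array, while the other 11 summed to 235.1 and 226.7. Mast cell markers summed to 201.2 and 298.6, and the part of either in these values was not tested. In the CD31_CD45 pair, also within 1 scanner set, Casp1 was highest (136.7 to 234.5, log2 0.68), followed by Pycard (164.9 to 230.5, log2 0.45). Pan-hematopoietic markers summed to 3212.0 and 4222.6 there and endothelial markers to 27431.5 and 21208.9. Il1b read 2741.4 and 2613.8, and its log2 value depended on the normalisation: 0.09 as analysed, -0.07 with median scaling and 1.01 with local background subtraction.

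**Figure D3:**
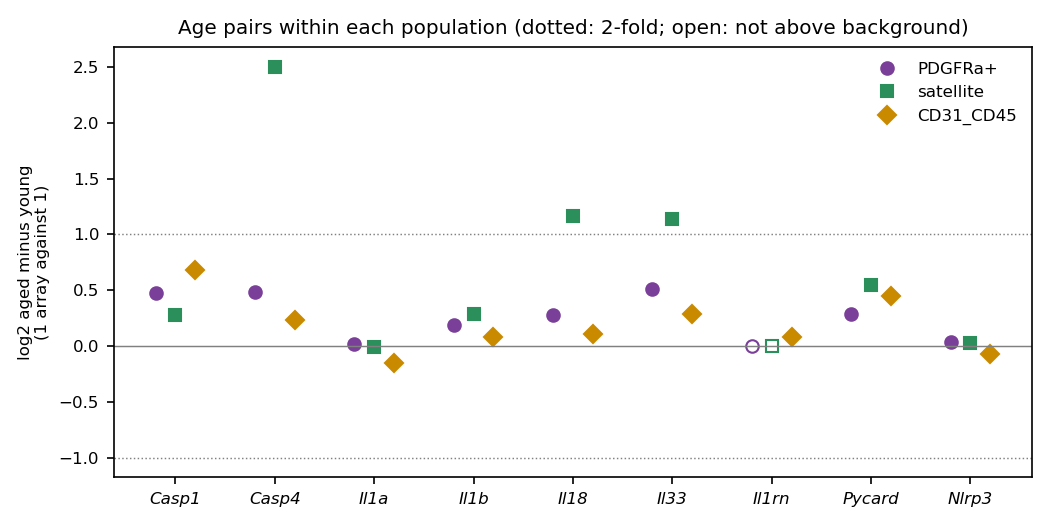
Log2 aged minus young (y axis) of the 9 genes in each population, 1 array against 1, with dotted lines at 2-fold and open symbols where the probe was not above background. Casp4 (2.50), Il18 (1.16) and Il33 (1.14) in satellite cells lie above the upper line, and every other point lies between the lines.

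Genes of the same pathway were read from 7 lists holding 100 symbols, of which 89 were named on the array and 87 tested. Of the 87, 6 were called higher and 5 lower in PDGFRa+ than in satellite cells, 6 higher and 13 lower in PDGFRa+ than in CD31_CD45, and 9 higher and 17 lower in satellite cells than in CD31_CD45, with medians of 0.02, -0.13 and -0.09. As shares of the 87 these were 6.90% and 5.75%, 6.90% and 14.9%, and 10.3% and 19.5%, beside 4.09% and 3.2%, 4.7% and 5.4%, and 5.12% and 6.56% of all genes tested. None was called with age. In all, 31 genes were called in at least 1 comparison.

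Of 9 receptors and binding proteins tested, 3 were lower in both PDGFRa+ and satellite cells than in CD31_CD45 and none was higher. They were Il1r2, the decoy receptor for IL-1 (15.6, 1.7 and 62.6 in young PDGFRa+, satellite and CD31_CD45 cells, and 8.0, 3.4 and 101.5 in aged), Il18bp, the soluble trap for IL-18 (58.4 and 62.5 in young and aged CD31_CD45, at most 14.4 elsewhere), and Sigirr, an inhibitory receptor of the family (308.6 and 282.4 in CD31_CD45, at most 40.7 elsewhere). All 3 restrain cytokines of the family, and all were highest on the arrays where Il1b and Il1a were highest. Il18, the cytokine that Il18bp traps, was lowest on those arrays (67.6 and 75.4 in young and aged CD31_CD45). Il1r1, the signalling IL-1 receptor, picked out here after its values were seen, was highest in PDGFRa+ cells at a dim signal (24.3 and 15.4, at most 4.0 elsewhere) and was not called (log2 0.53 against each of the other populations, adjusted p = 0.0224 and 0.0178 by limma). The 4 other IL-1 family ligands tested had no call.

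In the signalling list (14 tested), Myd88, the adaptor of the receptor complex, was higher in satellite cells (1459.0 and 972.3 in young and aged) than in PDGFRa+ (667.5 and 516.5) and CD31_CD45 cells (612.8 and 416.0). Its log2 differences were -1.06 for PDGFRa+ minus satellite (adjusted p = 0.0106 by limma) and 1.21 for satellite minus CD31_CD45 (adjusted p = 0.00473). Irak3, an inhibitory member of the kinase family, was higher in PDGFRa+ than in satellite cells (log2 1.21, adjusted p = 0.0153), and Irak1 higher in satellite than in CD31_CD45 cells (log2 1.02, adjusted p = 0.0017). Satellite cells were thus lowest in Pycard and Casp1 and highest in Myd88.

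Among 13 other sensors, Naip2 was lower in PDGFRa+ and satellite cells than in CD31_CD45 (39.2 and 74.0 there, at most 5.9 elsewhere), and Nlrc5 was higher in satellite than in CD31_CD45 cells (log2 1.27, adjusted p = 0.00972 by limma). Naip genes are close copies of each other, and how far their probes share signal was not tested. Among 18 triggers, proteases and effectors, 5 were lower and 1 higher in PDGFRa+ than in CD31_CD45, and 6 lower and 1 higher in satellite than in CD31_CD45. Casp8, which can also cut IL-1 beta, followed the order of Casp1 and Pycard (111.7, 25.8 and 388.6 in young PDGFRa+, satellite and CD31_CD45 cells, and 101.1, 42.6 and 328.9 in aged) and was called in all 3 comparisons. Casp12 ran the other way, with called differences of 1.59 for PDGFRa+ (adjusted p = 0.0310) and 1.19 for satellite cells (adjusted p = 0.0497) over CD31_CD45, where it read 67.5 and 129.5. Ctsb, a lysosomal protease, was lower in satellite cells (1594.4 and 1485.2 in young and aged) than in both others. Ninj1, which ruptures the membrane in pyroptosis, was called higher in CD31_CD45 (353.6 and 346.7) than in both others (at most 157.1), and so was Gbp2, an interferon-induced GTPase (927.4 and 967.7, with at most 348.7 elsewhere).

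Of 22 response genes of NF-kB and IL-1, 3 were higher and 4 lower in PDGFRa+ than in satellite cells, 4 higher and 3 lower in PDGFRa+ than in CD31_CD45, and 4 higher and 6 lower in satellite cells than in CD31_CD45. In the same order these were 13.6% and 18.2%, 18.2% and 13.6%, and 18.2% and 27.3% of the list, beside the all-gene shares of 4.09% and 3.2%, 4.7% and 5.4%, and 5.12% and 6.56%. Cxcl2, a neutrophil attractant, was high on the same arrays as Il1b, at 3466.6 and 2280.6 in CD31_CD45 (young, aged) against 90.2 or less elsewhere, and was lower by called differences in PDGFRa+ (log2 -5.03, adjusted p = 0.00568 by limma) and satellite cells (-4.86, adjusted p = 0.00532). Its relative Cxcl1 had the opposite order, with 850.1 and 341.2 in CD31_CD45 and between 2972.9 and 5519.1 elsewhere (log2 2.75 and 2.59 over CD31_CD45, adjusted p = 0.00862 and 0.00826). By called differences against both other populations, Ccl2 and Ptgs2 were highest in PDGFRa+ cells (1151.4 and 1818.1 for Ccl2, 214.6 and 251.7 for Ptgs2), and Nfkbiz and Zc3h12a, 2 feedback regulators, in satellite cells (1079.1 and 860.8 for Nfkbiz, 227.5 and 256.0 for Zc3h12a). Nfkbia, of the same list, was called higher in CD31_CD45 (7646.7 and 6074.2) than in both others (at most 5285.8). In the satellite age pair, 3 of 21 genes of this list were at least 2-fold higher in the aged array, against 1.13% of all genes: Il6 (59.7 and 271.8, log2 1.78), Mmp3 (10.7 and 100.2, log2 1.60) and Ccl2 (129.8 and 281.3, log2 1.01), of which Il6 lies outside the rule for naming genes and was picked out after its values were seen. Of 7 genes that mark cells answering IL-33, Gata3 was highest in CD31_CD45 (69.2 and 77.2, at most 5.0 elsewhere) and Rora lowest there (109.4 and 87.3).

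**Figure D4:**
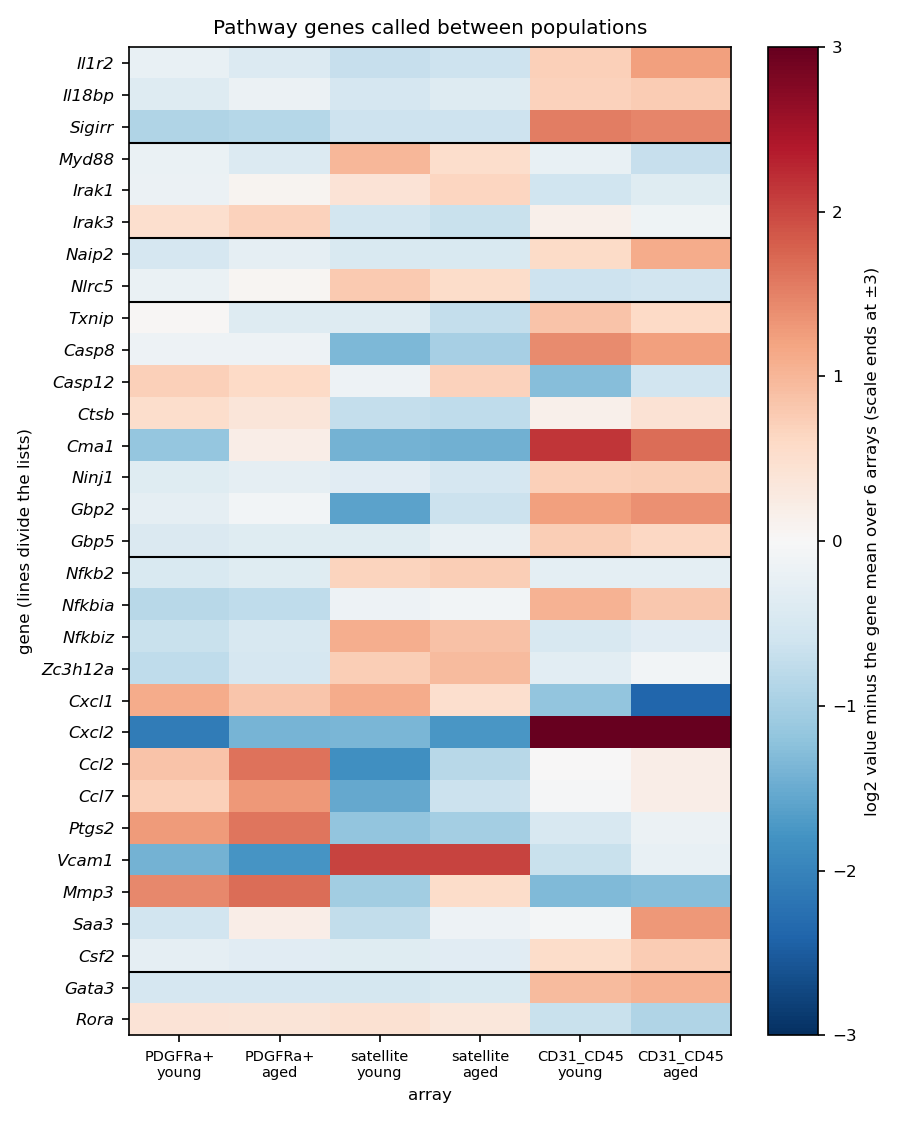
Log2 value minus the gene's mean over 6 arrays (colour) for the 31 pathway genes called in at least 1 comparison of populations; rows are genes, black lines divide the lists, columns are arrays. Cxcl2 stands out in both CD31_CD45 columns, Vcam1, also a satellite cell marker, in both satellite columns, and Ccl2 and Ptgs2 are highest in the PDGFRa+ columns.

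For each of the 9 genes, the nearest genes over the 6 arrays were found by the Euclidean distance between log2 values centred on each gene's mean, as a description over 6 points. Il1b was nearest to C1qa (distance 0.41), C1qb (0.65) and Fcer1g (0.71), Il33 to Ccdc80 (0.54), Sh3gl2 (0.56) and Cpxm2 (0.57), and Pycard to Lgals9 (0.30), Cyba (0.36) and Shisa5 (0.36). C1qa, C1qb and Fcer1g are genes of macrophages and other myeloid cells, and Ccdc80 is a secreted matrix protein gene. Casp1 was nearest to Il10rb (0.43), Il18 to Pdgfc (0.36) and Casp4, with no gene closer than 1.01, to Ifitm1. The distances of Il1a (0.04), Il1rn (0.04) and Nlrp3 (0.05) to their nearest genes go with probes that vary little on this scale, with ranges of 0.75, 0.55 and 0.36 over the 6 arrays. No gene of the 9 was among the 3 nearest of another.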

How the data were processed

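Each of the 6 arrays was one-colour, with amino allyl amplified RNA labelled with Cy5 and read at 635 nm, per the labels and the file headers. The deposited table by the authors holds linear intensity with an array median of 25, which could be rebuilt by scaling each spot's median after subtracting the trimmed mean of 2736 blank spots (largest difference 0.0905). A probe was counted as above background where its cell was not empty. The build of the probe annotation is not given in the sources used here. Spot medians were corrected with limma 3.58.1 in R 4.3.3 (normexp, blank spots as background, offset 50), converted to log2 and normalised by quantiles. For the 1283 genes with several probes the brightest was taken. All 18372 genes entered 1 model with population and age as terms (2 residual degrees of freedom, prior 1.50, two-sided tests). The script was tested on simulated data. The 9 genes, the 7 pathway lists and 13 marker lists were chosen with earlier results of these data known. Every one of the 9 genes is named, and from the lists most of the genes called between populations. Txnip, Cma1, Gbp5, Nfkb2, Ccl7, Saa3 and Csf2 were also called and are not described. Probe sequences and protein sequences were not used here. Alternatives were other backgrounds, offsets, scalings, filters, probe choice, models and arrays left out.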

Additional observations from a re-analysis of the deposited data

Results flagged for a closer look

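Il1a and Nlrp3 had age differences of opposite sign in different populations. Aged minus young on the log2 scale was 0.0178 in PDGFRa+ cells, -0.0062 in satellite cells and -0.1509 in CD31_CD45 cells for Il1a. For Nlrp3 it was 0.0396, 0.0289 and -0.069 in the same order. Each value sets 1 array against 1, and the difference between populations was not tested.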

How the results depend on the processing

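Of 662 values of tests under other settings, 577 kept direction and side of the threshold, 32 newly passed, 22 no longer passed and 31 changed sign, all of the latter in differences that were not called. Called genes for PDGFRa+ minus satellite numbered 3, and 0 with local background; leaving out arrays gave 0 to 4 (0 without either PDGFRa+ array, 4 without young satellite). For PDGFRa+ minus CD31_CD45 there were 3, and 1 with local background, 7 with the deposited table, 6 with an offset of 10 and 7 with no fold minimum, with arrays left out 1 (young PDGFRa+) to 4 (either satellite array). For satellite minus CD31_CD45 there were 3, and 1, 6, 6 and 6 in the same order. Il1rn, which entered through its CD31_CD45 arrays, is in each of these counts of 6 and 7 and among the 32 values that newly passed. Among all genes the 3 comparisons called 1339, 1857 and 2146, against 69, 289 and 342 with local background, 3151, 4003 and 4714 with the deposited table, 2213, 2947 and 3382 with an offset of 10, and 4505, 5279 and 6408 with no fold minimum; with scanner set as a block the second was 835, and without young PDGFRa+ 1134. At least 2-fold age differences numbered 1 (Casp4) with local background in PDGFRa+ and in satellite cells, 2 in CD31_CD45 (Casp1 and Il1b), and 5 in satellite cells in the deposited table.

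Signs turned for PDGFRa+ minus satellite in Il1rn with local background (-0.0086), Casp4 in the deposited table (0.1739), with an offset of 10 (0.0362) and with scanner set as a block (0.9768), Il1a in the table (-0.0947) and Il1b with the block (0.0581). They turned for Casp4 minus CD31_CD45 in PDGFRa+ with the block (1.8155) and in satellite cells with local background (0.0864) and the block (0.8387), and for Il33 in satellite minus CD31_CD45 (0.0762 and 0.3507). With age they turned for Il1a with local background (0.0287), Nlrp3 in the table (0.0508) and with an offset of 10 (0.0162), and Il1rn with median scaling (-0.0027). With arrays left out, PDGFRa+ minus satellite ran from -1.1668 to 0.9768 for Casp4, -0.0453 to 0.0511 for Il1a, -0.0906 to 0.0581 for Il1b and -0.2436 to 0.7254 for Il18; PDGFRa+ minus CD31_CD45 from -0.9578 to 0.3016 for Casp4; satellite minus CD31_CD45 from -1.3048 to 0.8387 for Casp4 and -0.392 to 0.3507 for Il33; and age from -0.0785 to 0.0058 for Il1a and -0.02 to 0.0342 for Nlrp3. Only the satellite pair spans both scanner sets. In PDGFRa+ minus satellite the block therefore gave the values found without the aged satellite array. In satellite minus CD31_CD45 it gave those found without the young satellite array. The cause of the sign changes was not tested. Median scaling and the deposited table moved the median of all genes in satellite minus CD31_CD45 to 0.11 and 0.14. The model already pairs the aged and young array of each population. No further replicate block could be fitted because there was 1 array for each population and age. Signal near background limits Il1a, Il1rn and Nlrp3, and also the young satellite values of Il33 (5.7), Casp1 (6.9) and Pycard (8.3).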
